A study of Mus musculus with 2 samples.

Results

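The genes described here encode apolipoproteins and other proteins that the visceral endoderm secretes. They are Apoa1, Apoa2, Apoe, Apoc1, Apom, Apob, Rbp4, Ttr and Afp, or 9 of the 26127 gene probes measured by RNA-seq in wild-type (WT) and H3.3 G34R mouse embryonic stem (ES) cells. Apoa2 was picked for its large ratio between the cell lines in these same data, and the others were chosen as secretory genes of the same tissue, so the values of Apoa2 are given as a description. WT cells carry unmodified H3f3a and H3f3b. G34R cells are heterozygous for a targeted H3f3a allele, in which a G34R minigene is driven by the endogenous H3f3a promoter after Cre excision of a WT minigene and a neo cassette, and their H3f3b is intact. Both lines are labelled as strain 129S1/SvImJ under 20 passages and were grown in serum with leukaemia inhibitory factor. Each cell line gave 1 library of stranded total RNA, and the G34R library is from 1 targeted line. No value below has a replicate, no difference was tested, and the allele cannot be told apart from other differences between the 2 lines.

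The visceral endoderm is the outer epithelium of the early embryo. It takes up maternal nutrients and secretes lipoproteins and serum proteins before the liver forms. Apolipoproteins coat lipid particles: APOB is the structural protein of the large particles, APOA1 and APOA2 are the main proteins of high density lipoprotein (HDL), and APOE is a ligand for the uptake of particles into cells. RBP4 carries retinol in plasma and circulates bound to transthyretin (TTR), which also carries thyroxine, and alpha-fetoprotein (AFP) is the fetal relative of albumin. ES cells are derived from the epiblast lineage, which is separate from the visceral endoderm.

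Promoter sequences of 7 of these 9 genes were used, taken by symbol from RefSeq (GRCm38.p6). Each of those used was found once, as an exact match, in the mm9 assembly that the files use. Apoc1 and Ttr are not among them, which does not mean that RefSeq lacks their promoters. The 250 bases before a start site are shown for both genes that were above 2-fold in G34R cells (Apoa2 and Apoe), for Rbp4, which was below 2-fold and has a CpG-rich start, and for Afp, which was listed at 0. They run 5′ to 3′ on the strand of the gene, and capitals mark matches to the motifs named after them.
Apoa2, chr1:173154935-173155184, plus strand: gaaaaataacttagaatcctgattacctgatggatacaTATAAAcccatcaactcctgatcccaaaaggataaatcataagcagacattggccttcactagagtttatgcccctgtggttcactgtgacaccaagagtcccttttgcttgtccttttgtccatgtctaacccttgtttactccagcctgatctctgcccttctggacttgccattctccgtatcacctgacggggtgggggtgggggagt
Apoe, chr7:20284538-20284787, minus strand: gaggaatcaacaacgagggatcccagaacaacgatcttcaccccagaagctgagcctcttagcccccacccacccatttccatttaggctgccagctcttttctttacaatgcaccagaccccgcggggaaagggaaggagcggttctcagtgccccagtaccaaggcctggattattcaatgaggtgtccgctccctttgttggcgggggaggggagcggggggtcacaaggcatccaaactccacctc
Rbp4, internal start, chr19:38199302-38199551, minus strand: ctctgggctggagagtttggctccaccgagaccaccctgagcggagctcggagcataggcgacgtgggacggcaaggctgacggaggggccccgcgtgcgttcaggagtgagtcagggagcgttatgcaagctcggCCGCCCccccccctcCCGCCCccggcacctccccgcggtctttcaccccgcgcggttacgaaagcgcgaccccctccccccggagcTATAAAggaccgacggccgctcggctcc
Afp, chr5:90919490-90919739, plus strand: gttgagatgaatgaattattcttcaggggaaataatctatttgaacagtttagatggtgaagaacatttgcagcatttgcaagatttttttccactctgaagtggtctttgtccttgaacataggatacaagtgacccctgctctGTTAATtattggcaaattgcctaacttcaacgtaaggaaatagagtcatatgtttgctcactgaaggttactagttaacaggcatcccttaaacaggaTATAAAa

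The motifs, searched on both strands, were the TATA box (TATAAA, in 12.4% of the 32851 RefSeq promoters over the same length), the GC box (GGGCGG, 32.7%), a nuclear receptor half-site (AGGTCA, 14.0%), a GATA site (AGATAA, 9.99%), an HNF1 half-site (GTTAAT, 6.43%) and an E-box (CACGTG, 6.02%). Positions count back from the base before the start site, and no matches in the sequences shown overlapped. The Apoa2 window held a TATA box at -212, 2 CpG dinucleotides and 46.4% G+C. The Apoe window held none of the 6 motifs, with 8 CpG and 57.2% G+C. RefSeq holds further start sites of both genes. Over their windows, which are not shown, Apoa2 had a nuclear receptor half-site at -238 of one start, and Apoe had overlapping TATA boxes at -100 and -96 of one start and an HNF1 half-site at -172 of another. The internal Rbp4 start held GC boxes at -114 and -99, a TATA box at -28 and 28 CpG, against a median of 6 over all promoters, and the part of its window nearest the outer start overlaps the first annotated exon. The outer Rbp4 start held none of the motifs and 5 CpG. The Afp window held an HNF1 half-site at -105 and a TATA box at -7. Of the others, Apob had a TATA box at -60, and Apom and Apoa1 had no match. A match is a description of letters and was not tested as a binding site.

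The values are RPKM, reads divided by the length of the transcript and by the total of the library, so genes of different length can be compared within a library. They summed to 156468 in WT and 151548 in G34R cells. From the steps of the RPKM values, the depth was estimated as 88.05 M reads in WT and 72.1 M in G34R cells, so 1 read on a transcript of 1 kb is worth 0.0114 and 0.0139 RPKM. All 20 ES cell markers had at least 0.25 RPKM in 1 library. Of these, 16 lay within 2-fold, 3 were below in G34R cells (Zfp42, Nanog and Klf2) and 1 was above (Klf5). Pou5f1, the core pluripotency factor OCT4, had 194.34 RPKM in WT and 189.46 RPKM in G34R cells, whereas Zfp42, a marker of naive ES cells, had 180.3 and 16.4 RPKM and Nanog had 127.07 and 52.24 RPKM. Outside these lists, Hprt had 1.31 RPKM in WT and 48.39 RPKM in G34R cells, a gene named here after its value was seen. What set it apart was not tested.

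Of the 9 genes, 5 had at least 0.25 RPKM in 1 library (Apoe, Apoc1, Apoa2, Apom and Rbp4), and 4 had less in both (Apoa1, Apob, Ttr and Afp). Among these 5, Apoa2 and Apoe were above 2-fold in G34R cells, Apom and Rbp4 were below 2-fold, and Apoc1 lay within 2-fold. Over the 13366 probes with at least 0.25 RPKM, 5.79% were above 2-fold in G34R cells and 9.64% below. Because Apoa2 was chosen by its ratio, nothing is read from its share of this count. The median log2 (G34R/WT RPKM) of the 5 genes was -0.17, beside -0.07 over all 13366 probes. This median includes Apoa2, and without it the median of the remaining 4 genes was -1.10, with Apoe above 2-fold and Apom and Rbp4 below it. Their label as visceral endoderm secretory genes was not borne out as a shared level, since Afp, Ttr and Apob, which define that secretory repertoire, were at or near 0 in both libraries. In RNA from a whole culture, fewer cells of a type and less RNA per cell cannot be told apart.

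**Figure D1:**
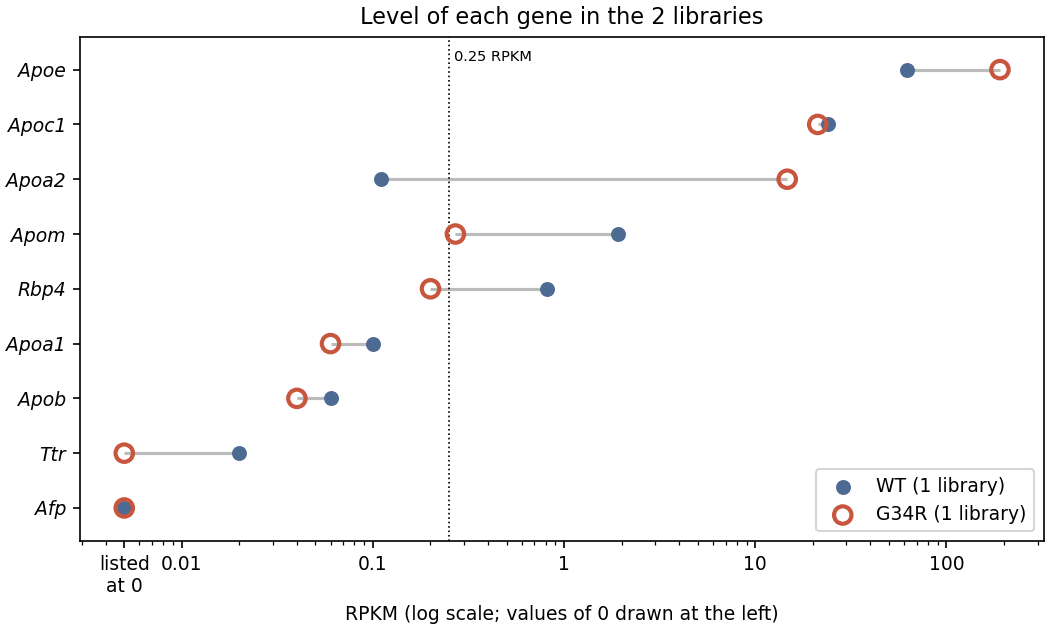
RPKM of the 9 genes in WT (filled) and G34R (open) cells on a log axis, 1 library each and so without error bars, with values of 0 drawn at the left edge. Apoa2 spans from 0.11 to 14.7 RPKM, Apoe is the highest in both libraries, and Apoa1, Apob, Ttr and Afp lie to the left of the dotted line at 0.25 RPKM.

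Summed over the 9 genes, the level was 89.38 RPKM in WT and 227.12 RPKM in G34R cells, a ratio of 2.54, or 0.0571% and 0.150% of all RPKM. Apoe alone held 69.8% of that sum in WT and 83.9% in G34R cells. Without Apoe the sums were 26.95 and 36.5 RPKM, a ratio of 1.35. Without Apoe and Apoa2 they were 26.84 and 21.8 RPKM, a ratio of 0.812, so the higher sum in G34R cells rests on these 2 genes, of which Apoa2 was chosen by its ratio.

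Apoa2, whose product is a structural protein of HDL, is ENSMUSG00000005681 on the plus strand of chromosome 1 (chr1:173155185-173156510), with 4 merged exon blocks of 537 bp in all. Its level was 0.11 RPKM in WT and 14.7 RPKM in G34R cells, or about 5 and 569 estimated reads. It was thus close to the lower limit of detection in one line and among the better expressed genes in the other. Its rank by level was 14283 in WT and 2100 in G34R cells. The log2 (G34R/WT RPKM) was 7.06, or 134-fold, with a 95% exact binomial interval of 59.2 to 430-fold. The interval is for estimated reads and covers counting error only, as do all intervals below, and its width comes from the few reads in WT cells. Among the 13269 probes with at least 0.25 RPKM in 1 library and above 0 in both, 2 had a larger log2 ratio. These were Olig2 (9.21) and Olig1 (7.13), transcription factors of the oligodendrocyte lineage. Probes listed at 0 in 1 library were left out of this ranking. With them included at the floor of 0.01 RPKM, 0.0224% of the 13366 probes with at least 0.25 RPKM had a higher ratio.

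Apoa1, the other main HDL protein and the activator of the cholesterol-esterifying enzyme LCAT, did not share the level of Apoa2. It lies on chromosome 9 (chr9:46036663-46038549, ENSMUSG00000032083) and had 0.10 RPKM in WT and 0.06 RPKM in G34R cells, about 9 and 4 estimated reads. The ratio of 0.6 had an interval of 0.122 to 1.94, so a difference was not detectable at this depth. Its neighbours Apoc3 and Apoa4, which belong to the same apolipoprotein cluster, were listed at 0 in both libraries.

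Apoe lies on the minus strand of chromosome 7 (chr7:20281458-20284515, ENSMUSG00000002985), with 6 merged exon blocks of 1980 bp. Its product is the receptor ligand of remnant particles and is made by many cell types, among them macrophages and glia. The level was 62.43 RPKM in WT and 190.62 RPKM in G34R cells, or about 10884 and 27213 estimated reads. The log2 ratio was 1.61, or 3.05-fold (95% interval 2.99 to 3.12), and 2.42% of probes with at least 0.25 RPKM had a higher one. Its rank by level was 401 in WT and 83 in G34R cells. As a difference in level it gained 128.19 RPKM, the 9th largest gain of all probes. Among the 3467 probes with at least 10 RPKM in 1 library, 3.37% were above 2-fold in G34R cells.

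Apoc1, a small exchangeable apolipoprotein that slows the uptake of remnant particles, lies beside Apoe on the same strand, 3.45 kb away (chr7:20274833-20278007, ENSMUSG00000040564, 537 bp of exons). It had 23.93 RPKM in WT and 21.23 RPKM in G34R cells, about 1131 and 822 estimated reads. The log2 ratio was -0.17, and the fold of 0.887 had an interval of 0.810 to 0.972, which covers counting error only. The 2 neighbours shared 0 exon bases and differed in their ratio, Apoe being above 2-fold and Apoc1 within it. Apoc1 made up 26.8% of the summed level of the 9 genes in WT and 9.35% in G34R cells.

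The remaining genes of this cluster were expressed at lower levels. Apoc2, the cofactor of lipoprotein lipase, had 0.38 RPKM in WT and 1.15 RPKM in G34R cells (log2 ratio 1.60, interval 0.98 to 2.25), from about 31 and 77 estimated reads. Apoc4 had 0.78 and 0.21 RPKM (log2 ratio -1.89, interval -3.33 to -0.70), from about 32 and 7 estimated reads. These values are uncertain, because Apoc2 and Apoc4 share 112 exon bases on the same strand, which is 24.1% of the exon length of Apoc4. On the other side of Apoe, Tomm40, a subunit of the mitochondrial import channel, had 23.90 RPKM in WT and 23.66 RPKM in G34R cells. Along the 5 genes from Apoc2 to Tomm40, 2 were therefore above 2-fold, 1 below and 2 within it.

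Apom, a lipocalin of HDL that carries sphingosine 1-phosphate, lies on the minus strand of chromosome 17 (chr17:35265942-35268995, ENSMUSG00000024391, 1013 bp of exons). Its level was 1.92 RPKM in WT and 0.27 RPKM in G34R cells, about 171 and 20 estimated reads. It was the lowest in relative terms of the 5 expressed genes in G34R cells, with a log2 ratio of -2.83. This is 7.11-fold lower (95% interval 4.39 to 11.8), and 2.4% of probes with at least 0.25 RPKM had a lower ratio.

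Rbp4, the plasma carrier of retinol, lies on the minus strand of chromosome 19 (chr19:38191110-38199811, ENSMUSG00000024990, 1297 bp of exons). Its level was 0.81 RPKM in WT and 0.20 RPKM in G34R cells, about 93 and 19 estimated reads. The log2 ratio was -2.02, or 4.05-fold lower (95% interval 2.43 to 6.95), and 3.80% of probes had a lower one. The intervals of Apom and Rbp4 overlap, so their order was not resolved at this depth. When 1 RPKM was added to both libraries, Rbp4 moved inside 2-fold, with a log2 ratio of -0.59.

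Apob, the structural protein of very low density lipoprotein and chylomicrons, has the longest transcript of the set, with 29 merged exon blocks of 13934 bp on chromosome 12 (chr12:7984454-8023641, ENSMUSG00000020609). It had 0.06 RPKM in WT and 0.04 RPKM in G34R cells, about 74 and 40 estimated reads, and a ratio of 0.667 with an interval of 0.438 to 0.983. The long transcript gives it more reads than Apoa1, although its level per length was lower. Both of its values are low enough that rounding of RPKM to 2 decimals could move the ratio.

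Ttr (ENSMUSG00000061808, 1219 bp of exons), the plasma partner of Rbp4, had 0.02 RPKM in WT cells, about 2 estimated reads, and was listed at 0 in G34R cells. A count of 0 there allows up to 0.0341 RPKM, which is above the WT value, so no difference was detectable. Afp (chr5:90919740-90937933, ENSMUSG00000054932, 2086 bp of exons) was listed at 0 in both libraries, which allows up to 0.0163 RPKM in WT and 0.0199 RPKM in G34R cells. These limits are for counting error only.

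Sequence shared between genes was checked for all 9. With exact matches of at least 50 bases, the read length, the coding transcripts of the 9 genes had 0 matches elsewhere in the genome assembly.

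**Figure D2:**
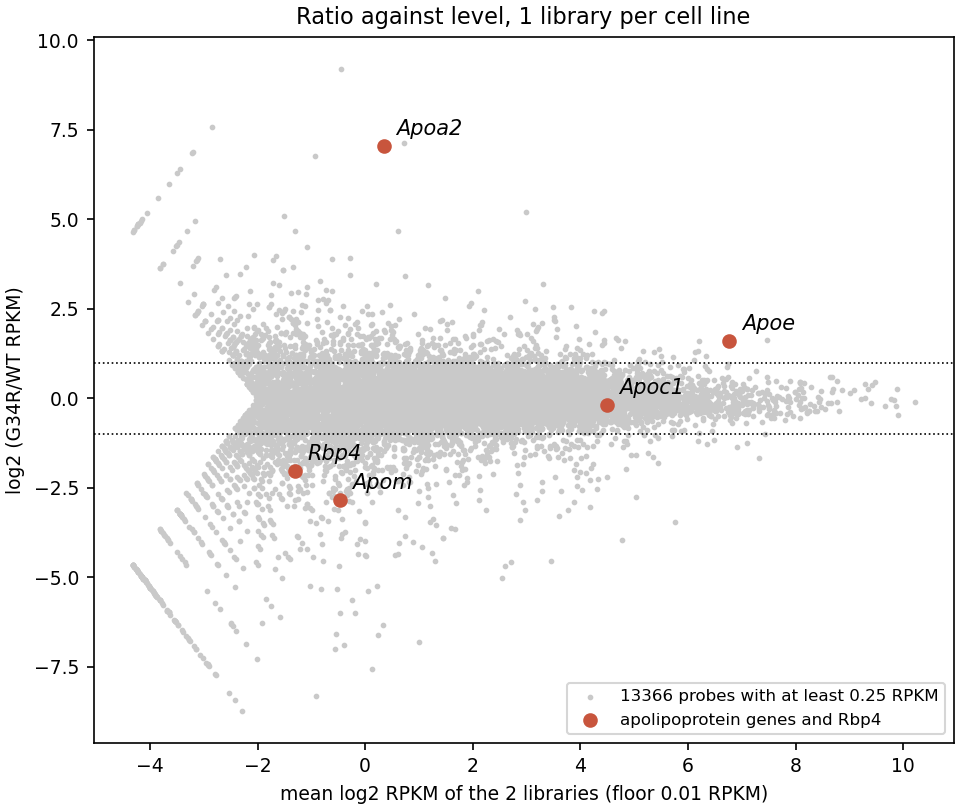
log2 (G34R/WT RPKM) against the mean log2 RPKM of the 2 libraries for the 13366 probes with at least 0.25 RPKM (grey) and the 5 expressed genes of the set (red), with dotted lines at 2-fold. Apoa2 at 7.06 lies at the upper edge of the cloud, Apoe at 1.61 is high both in level and in ratio, Apom (-2.83) and Rbp4 (-2.02) lie below the lower line, and Apoc1 (-0.17) lies in the middle. Straight lines of points at the left are probes held at the floor of 0.01 RPKM.

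The genes that flank each of the 9 were compared to see whether a difference extended along the chromosome. Next to Apoa2, Tomm40l had 4.19 RPKM in WT and 3.68 RPKM in G34R cells (log2 ratio -0.19). Fcer1g, an immune receptor subunit 3.19 kb from Apoa2, had 0.13 and 0.14 RPKM, and Nr1i3, the nuclear receptor CAR, had 0.02 RPKM in both. Of the 4 probes nearest to Apoa2, 2 had at least 0.25 RPKM and 0 of them were past 2-fold. The large ratio of Apoa2 was thus not shared by its nearest neighbours.

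The flanks of Apom were all expressed, and 0 of 4 were past 2-fold. D17H6S53E, which ends 0.142 kb from the Apom probe, had 0.85 and 1.29 RPKM (log2 ratio 0.60), and Gpank1 had 5.63 and 6.78 RPKM. On the other side Bag6, a chaperone of tail-anchored proteins, had 18.10 and 25.77 RPKM (0.51) and Prrc2a had 26.21 and 37.59 RPKM (0.52). All 4 had higher values in G34R cells, where Apom was lower. Around Rbp4, Cep55 had 19.02 and 11.38 RPKM (-0.74), 5730455O13Rik had 4.25 and 3.41 RPKM (-0.32), O3far1 had 0.15 and 0.01 RPKM and Pde6c was listed at 0 in both. Farther out, 73.0 kb from Rbp4, Myof had 6.91 and 0.34 RPKM (-4.35), a larger difference than that of Rbp4 in the same direction. Myof, Bcam and Gm17705 were named after their values were seen. Afp lies between Alb and Afm, both of the albumin family. Alb was listed at 0 in both libraries, and Afm at 0 in WT and 0.10 RPKM in G34R cells. The next probe beyond Afm, 5830473C10Rik, was listed at 0 in both.

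**Figure D3:**
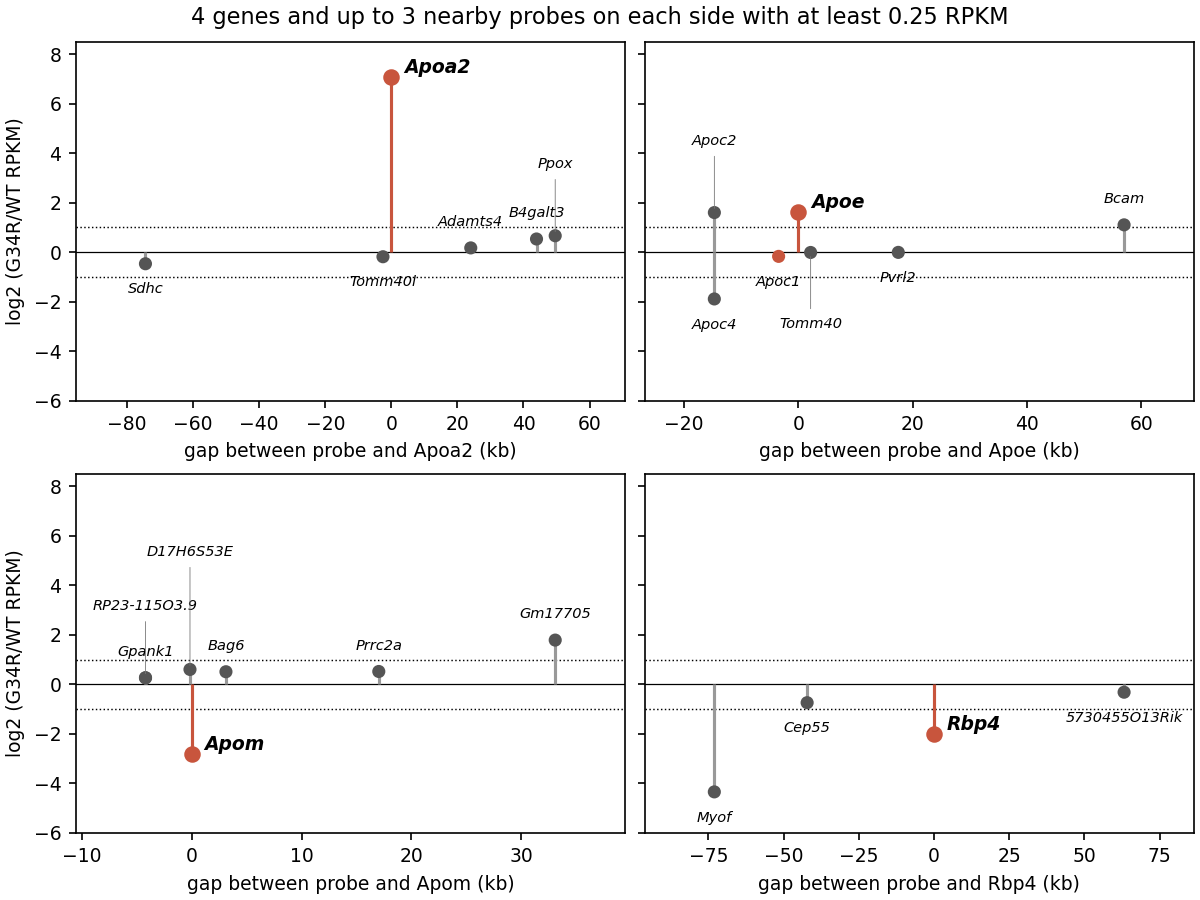
log2 (G34R/WT RPKM) of Apoa2, Apoe, Apom and Rbp4 (red, at distance 0) and of up to 3 nearby probes with at least 0.25 RPKM on each side within 150 kb (grey, Apoc1 in red), against the gap between probes in kb, with dotted lines at 2-fold. Apoa2 is the only gene drawn in its panel that is past 2-fold, Rbp4 shares its direction with Myof (-4.35), and Apoc2 (1.60), Apoc4 (-1.89) and Apoe (1.61) are past it in opposite directions in 1 cluster, and Bcam (1.10) and Gm17705 (1.79) are also past it.

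The 5 probes with levels nearest to those of Apoa2, by Euclidean distance over log2 RPKM in the 2 libraries, were Olig1 (0.14 RPKM in WT and 19.6 RPKM in G34R cells, distance 0.54), Nkx6-3 (0.30 and 7.70 RPKM, distance 1.72), Gm17669 (0.05 and 5.49 RPKM, distance 1.82), Olig2 (0.03 and 17.71 RPKM, distance 1.89) and Nod1 (0.21 and 3.21 RPKM, distance 2.39). Olig1 and Olig2 are neighbours on chromosome 16, and none of the 5 is on the chromosome of Apoa2 or is another apolipoprotein. With 2 libraries, likeness means only that a gene was low in WT, here at most 0.30 RPKM, and higher in G34R cells.

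Other genes of lipid transport and yolk sac secretion were read from 5 lists with 132 genes in all, of which 68 had at least 0.25 RPKM. Of these, 12 were above 2-fold and 15 below in G34R cells, with a median log2 ratio of 0.01. Beside the 5.79% and 9.64% over all probes, these counts describe the lists and were not tested. The lists moved in both directions, as the 9 genes did.

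The list of other apolipoproteins holds 17 genes, of which Apobec1 is an RNA editing enzyme and not an apolipoprotein. In this list 8 genes had at least 0.25 RPKM, with 1 above 2-fold (Apoc2), 3 below (Apod, Apoc4 and Apol6) and a median of -0.37. Without Apobec1, 7 of 16 were expressed, with the same 1 above and 3 below and a median of -0.59. Apod, a lipocalin that binds small lipids, had 1.57 RPKM in WT and 0.11 RPKM in G34R cells (log2 ratio -3.84), and Apol6 had 0.27 and 0.10 RPKM (-1.43). The most highly expressed were Apoo, a mitochondrial protein, with 4.42 and 2.94 RPKM, Apobec1, with 2.87 and 2.82 RPKM, and clusterin (Clu), with 2.32 and 3.37 RPKM. Apobec1 edits the Apob transcript and was measured at a level well above Apob itself. Apoa4, Apoa5, Apoc3 and Apoh were listed at 0 in both.

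Of 27 genes of lipoprotein assembly, remodelling and receptors, 23 were expressed, with 3 above 2-fold, 4 below and a median of 0.01. Among those above were Abca1, the cholesterol exporter that lipidates HDL (0.78 RPKM in WT and 2.44 RPKM in G34R cells, log2 ratio 1.65), and Amn, the partner of cubilin (0.38 and 0.90 RPKM, 1.24). Lrp2, the endocytic receptor megalin, had 4.75 and 1.62 RPKM (-1.55), Mttp, which loads lipid onto APOB, had 1.01 and 0.39 RPKM (-1.37), and Soat2, which esterifies cholesterol, had 0.93 and 0.40 RPKM (-1.22). P4hb, the protein disulphide isomerase that partners Mttp (88.1 and 79.94 RPKM), and Pdia4 (44.89 and 36.54 RPKM) had the highest mean levels, and both lay within 2-fold. Mia2 was listed at 0 in both.

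Of 22 genes of retinol and thyroid hormone handling, 11 were expressed, with 0 above 2-fold, 4 below and a median of -0.17. Among those below were the cytoplasmic carrier Crabp2 (2.42 RPKM in WT and 1.09 RPKM in G34R cells, log2 ratio -1.15) and the retinaldehyde dehydrogenase Aldh1a2 (0.53 and 0.24 RPKM, -1.14). They were lower in the same library as Rbp4. The most abundant were the receptors Rarg (17.54 and 15.55 RPKM) and Rara (8.53 and 8.81 RPKM) and the carrier Crabp1 (10.69 and 5.70 RPKM), all within 2-fold. Rbp2, Rbp3 and Dio1 were listed at 0 in both.

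Of 40 other secreted serum proteins of yolk sac and liver, 12 were expressed, with 4 above 2-fold, 2 below and a median of 0.19, and 14 were listed at 0 in both, Alb among them. Transferrin (Trf), the plasma iron carrier, had 2.61 RPKM in WT and 6.20 RPKM in G34R cells (log2 ratio 1.25). The complement inhibitor Serping1 had 1.18 and 3.63 RPKM (1.62), and the growth factor Igf2 had 0.15 and 0.82 RPKM (2.45). Gc, the plasma carrier of vitamin D and a member of the albumin family, was listed at 0 in WT and had 0.79 RPKM in G34R cells, about 95 estimated reads. Of the albumin family genes named here, Gc and Afm were listed at 0 in WT only, and Alb and Afp at 0 in both. Spink3, a secreted protease inhibitor, had 6.03 and 1.77 RPKM (-1.77), and prothrombin (F2) had 0.29 and 0.11 RPKM (-1.40). Ctsz (12.43 and 20.94 RPKM), Cst3 (17.07 and 15.76 RPKM) and Npc2 (14.5 and 13.2 RPKM), which many cell types secrete or keep in lysosomes, had the highest mean levels.

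Of 26 regulators of the visceral endoderm, 14 were expressed, with 4 above 2-fold, 2 below and a median of 0.13. Those above were the transcription factors Eomes (0.43 RPKM in WT and 1.88 RPKM in G34R cells, log2 ratio 2.13), Gata4 (0.50 and 1.18 RPKM, 1.24), Gata6 (0.30 and 1.09 RPKM, 1.86) and Sox17 (0.18 and 0.56 RPKM, 1.64). Hnf4a, the nuclear receptor known for driving apolipoprotein genes in visceral endoderm and liver, went the other way, with 0.56 and 0.06 RPKM, about 241 and 21 estimated reads (log2 ratio -3.22, interval -3.95 to -2.59). Cebpa had 1.24 and 0.50 RPKM (-1.31). The most abundant regulators, Nr5a2 (11.0 and 9.14 RPKM), Tead1 (7.30 and 7.87 RPKM) and Zfhx3 (1.12 and 1.93 RPKM), lay within 2-fold. Regulators of endoderm were thus found on both sides, as the secreted proteins were.

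**Figure D4:**
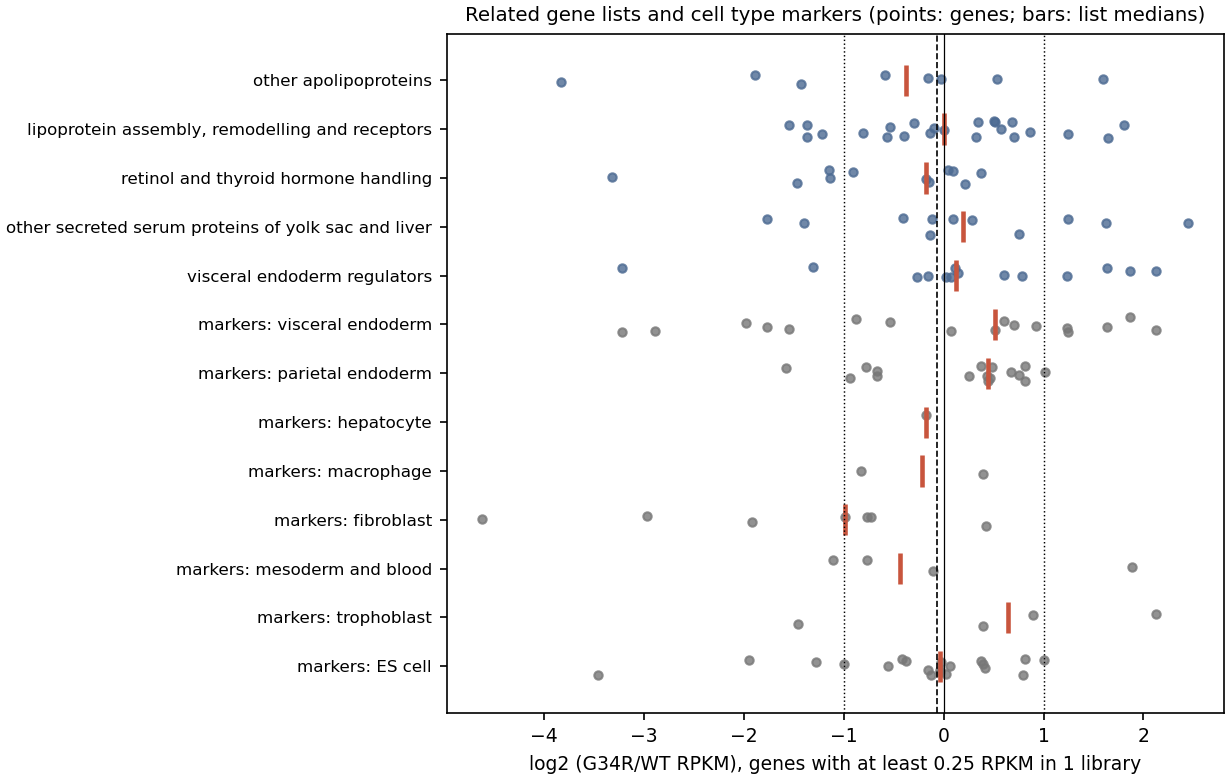
log2 (G34R/WT RPKM) of each gene with at least 0.25 RPKM in 1 library, by list, for 5 lists of related genes (blue) and 8 lists of cell type markers (grey). Red bars are list medians, the dashed line is the median of all probes (-0.07), dotted lines mark 2-fold, and Gc, listed at 0 in WT, is not drawn. Most lists have genes on both sides of 0.

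Markers of cell types that secrete these proteins were read beside the 9 genes, and their part in the values above was not tested. Of 24 visceral endoderm markers, of which 14 are also in the lists above, 17 were expressed, with 5 above 2-fold, 5 below and a median of 0.52. Those above were Eomes, Gata6, Sox17, Amn and Gata4, and those below were Hnf4a, Lefty1, Otx2, Spink3 and Lrp2. The summed level of the 24 markers was 63.45 RPKM in WT and 21.29 RPKM in G34R cells. Most of the difference in the sum was that of Lefty1 (39.91 and 5.39 RPKM, log2 ratio -2.89), with Otx2 (5.59 and 1.42 RPKM, -1.98), and both genes are also expressed by ES cells. Cer1, an antagonist secreted by anterior visceral endoderm, was listed at 0 in both. Of 19 parietal endoderm markers, 16 were expressed, with 1 above 2-fold (Hspg2, 14.16 and 28.7 RPKM), 1 below (Nid2, 52.84 and 17.7 RPKM) and a median of 0.44, and their sum was 219.53 and 241.4 RPKM. The most abundant others were Sparc (31.72 and 53.36 RPKM) and Lamc1 (34.07 and 44.27 RPKM).

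Defining markers of liver and of macrophages, which make apolipoproteins in the adult, were at or near 0. Of 12 hepatocyte markers, 8 were listed at 0 in both, and the only one with at least 0.25 RPKM was Ass1 (29.16 RPKM in WT and 25.72 RPKM in G34R cells), an arginine synthesis enzyme that other cells also use. Their sum was 29.37 and 25.73 RPKM. Of 14 macrophage markers, 2 were expressed, Cd68 (5.42 and 3.05 RPKM) and Mrc1 (0.19 and 0.25 RPKM), 0 were past 2-fold and the median was -0.22. Lyz2, Tyrobp and the C1q genes C1qa, C1qb and C1qc were listed at 0 in both, and the sum, most of it Cd68, was 6.21 and 3.65 RPKM. Of 15 fibroblast markers, 7 were expressed, with 0 above 2-fold, 3 below and a median of -0.99, and their sum was 7.4 and 3.81 RPKM. Of 14 mesoderm and blood markers, 4 were expressed, with 1 above, 1 below and a median of -0.43 (sum 11.8 and 7.87 RPKM). Of 10 trophoblast markers, 4 were expressed, with 1 above (Eomes, also a regulator of endoderm), 1 below and a median of 0.64 (sum 9.34 and 10.45 RPKM). The 20 ES cell markers had 1 above 2-fold (Klf5, 26.08 and 52.35 RPKM), 3 below (Zfp42, Nanog and Klf2) and a median of -0.04, and their sum was 2324.58 RPKM in WT and 1982.89 RPKM in G34R cells.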

How the data were processed

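Total RNA of each cell line was sequenced as 1 stranded library of 50 bp single-end reads. STAR 2.4.2a was used by the authors for alignment to mm9. They took primary alignments into Seqmonk, merged isoforms, divided by transcript length and deposited RPKM values. These are scaled to the total of a library, so very abundant genes can move every value. No counts were used here.

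Ratios are log2 (G34R/WT RPKM), with a floor of 0.01 RPKM, and probes needed at least 0.25 RPKM in 1 library. The depth estimate used steps in the values of 71 (WT) and 58 (G34R) single-exon probes under 800 bp. Estimated reads are the product of RPKM, annotated exon length and depth, and depend on both. Intervals are 95% exact binomial, limits at 0 use 3 counts, and both cover counting error only. Gene models were from GENCODE M1, and promoters from RefSeq.

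The 9 genes and the lists were chosen with earlier results of these data known. Named genes were, of each list, up to 3 of the highest mean RPKM and up to 3 past 2-fold in each direction, defining genes at 0, the 2 nearest probes on each side and the 5 probes most like Apoa2. Some of these are not reported here. Alternatives were other floors, filters, scalings and folds. The scripts were tested on simulated data. Software was blastn 2.17.0, pandas 2.3.3, SciPy 1.17.1, NumPy 2.4.6, matplotlib 3.10.9 and Python 3.11.15.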

Additional observations from a re-analysis of the deposited data

How the results depend on the processing

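Of the 9 genes, 2 were above the fold limit in G34R cells in each of 10 alternatives, which for Apoa2 follows from its choice. That limit was 2-fold, except where the alternative was a limit of 1.5-fold or 3-fold. Without Apoa2, left out after seeing the data, Apoe was the 1 that remained, and the median log2 ratio of the expressed genes was -1.10. Those below 2-fold went from 2 to 1 when 1 RPKM was added or at least 1 RPKM was required, and to 0 with at least 5 RPKM. The median log2 ratio of the expressed genes among them went from -0.17 to 0.72 with at least 1 RPKM and to 1.61 with at least 5 RPKM, since fewer genes entered. The summed ratio went from 2.54 to 1.35 without Apoe and turned to 0.812 without Apoe and Apoa2, a setting also added after seeing the data.

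Over 5 alternatives the log2 ratio ranged from 3.82 to 7.12 for Apoa2, 1.60 to 1.66 for Apoe, -0.17 to -0.12 for Apoc1, -2.83 to -1.20 for Apom and -2.02 to -0.59 for Rbp4, and none of these signs changed. In the related lists, genes above 2-fold went from 12 to 2 when 1 RPKM was added, 19 with no filter and 1 with at least 5 RPKM. Those below went from 15 to 3 when 1 RPKM was added, 26 with no filter, 7 with at least 1 RPKM, 1 with at least 5 RPKM and 5 at 3-fold.

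Over all probes, 774 above and 1289 below 2-fold became 196 and 356 when 1 RPKM was added, 1445 and 2877 with no filter, 439 and 689 with at least 1 RPKM, 181 and 239 with at least 5 RPKM, 1784 and 2431 at 1.5-fold, and 331 and 729 at 3-fold. No paired analysis was possible because each cell line has 1 library. Depth limits Apoa1, Apob and Ttr, with 74 or fewer estimated reads in each library, and the lack of replicates limits every value.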
